A study of Zea mays with 16 samples.

Results

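The genes described here encode the sliding clamp of DNA replication, the proliferating cell nuclear antigen (PCNA), and subunits of the replicative helicase, the minichromosome maintenance (MCM) proteins, in roots of waterlogged maize. Every probe set whose gene symbol or synonym was pcna or mcm followed by a number was taken, which gave 6 probe sets of 4 genes, out of 1452 probe sets of 1108 named genes and 17734 probe sets on the array. The 4 genes were pcna2 (GRMZM2G108712), pcna1 (GRMZM2G030523), MCM7 (GRMZM2G065205) and MCM6 (GRMZM2G021069). MCM6 was measured by 3 probe sets and each of the other genes by 1. The members counted below are the 6 probe sets, so MCM6 can enter a count 3 times.

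The study compared the inbred lines HKI1105, labelled tolerant, and V-372, labelled susceptible, to find genes that respond to waterlogging in the root. Both lines were grown in pots of soil. Untreated control roots were taken 28 days after sowing, roots under moderate stress on day 32 after 4 days of waterlogging, and roots under severe stress on day 35 after 7 days. Recovery roots were taken on day 42. The labels place the drainage at the end of 7 days of standing water, but the methods place it on the day of the recovery sampling, so the drained time of these roots is not settled. The standing water was 5 cm deep from day 29 on. Each of the 8 groups had 2 arrays, 16 in all. The labels call these biological replicates and the methods technical replicates, so a p-value here reflects no more than the spread of these arrays, which may be technical. Unstressed roots were sampled on day 28 alone, and stage and plant age cannot be told apart.

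PCNA forms a ring around DNA that holds the polymerases on the template while new strands are made. MCM6 and MCM7 belong to a ring of MCM subunits that is loaded at replication origins before S phase and unwinds the double helix once replication starts. In roots, cells that replicate their DNA lie mainly in the meristem of the tip and in the primordia of lateral and adventitious roots. In whole root tissue, fewer dividing cells and less of the RNA in each cell cannot be told apart.

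The values are log2 levels from the GCRMA algorithm, in which a difference of 1 is a doubling. Their lowest value, the floor, was 2.01. The arrays of one group correlated at 0.996 to 0.999 over all probe sets. The HKI1105 control arrays stood apart from the other 14 in several ways. The poly-A control transcripts, which are added to the RNA before labelling, had a median of 9.79 there against 6.16 to 7.41 in the other groups, and the hybridization controls 11.1 against 9.37 to 10.1. Of the 33 probe sets listed for root genes, 13 exceeded the floor by more than 1 log2 unit in the HKI1105 control and 17 to 23 in the other groups, and their summed level was 12.6 against 14.5 to 16.7 on the log2 scale. One of them, zrp4, a root-preferential methyltransferase gene, had 3.94 there and 2.56 to 7.40 over all groups. TIP2-3, a vacuolar aquaporin of roots, had 7.95 in that control and 12.1 to 14.2 elsewhere. Against the V-372 control, 16 of 21 leaf and photosynthesis probe sets were higher in the HKI1105 control and 1 lower at an adjusted p under 0.05 (limma). Of 18 probe sets listed for hypoxia genes, 6 were higher and 6 lower. Over all probe sets 24.3% were higher and 29.9% lower. Every comparison with the HKI1105 control below carries these differences, and their part in the results was not tested.

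pcna2 was low in the HKI1105 control and high in all other groups. Its level was 6.61 and 7.43 in the 2 control arrays of HKI1105, 10.66 and 10.57 at moderate stress, 10.34 and 10.51 at severe stress and 9.86 in both arrays of the recovery. In V-372 it was 10.78 and 10.70 in the control, 10.78 and 10.72 at moderate stress, 10.07 and 10.16 at severe stress and 9.47 and 9.41 in the recovery. Both HKI1105 control arrays therefore lay below all other 14 arrays. The group means fell in the order V-372 moderate, V-372 control, HKI1105 moderate, HKI1105 severe, V-372 severe, HKI1105 recovery, V-372 recovery and HKI1105 control, and of the 7 pairs of neighbours in this order 1, the V-372 control and moderate groups, overlapped in their arrays. Such overlaps, here and for the other members below, were not counted over all probe sets. With 2 arrays per group, which may be technical, they describe these arrays and do not settle the order of the groups. Without the HKI1105 control the group means of pcna2 spanned 1.32 log2 units, and with it 3.73.

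MCM7 followed a similar order. Its level was 4.05 and 4.03 in the HKI1105 control, 6.84 and 6.76 at moderate stress, 7.02 and 7.00 at severe stress and 6.19 and 5.65 in the recovery. In V-372 the control arrays had 6.71 and 6.86, the moderate stress arrays 6.93 and 6.86, the severe stress arrays 5.69 and 5.81 and the recovery arrays 4.43 and 4.89. The highest group was HKI1105 at severe stress and the lowest the HKI1105 control, with the V-372 recovery next to it. Of the 7 pairs of neighbours, 2 overlapped, HKI1105 moderate with the V-372 control and HKI1105 recovery with V-372 severe. The group means of MCM7 spanned 2.35 log2 units without the HKI1105 control, more than those of any other member.

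**Figure D1:**
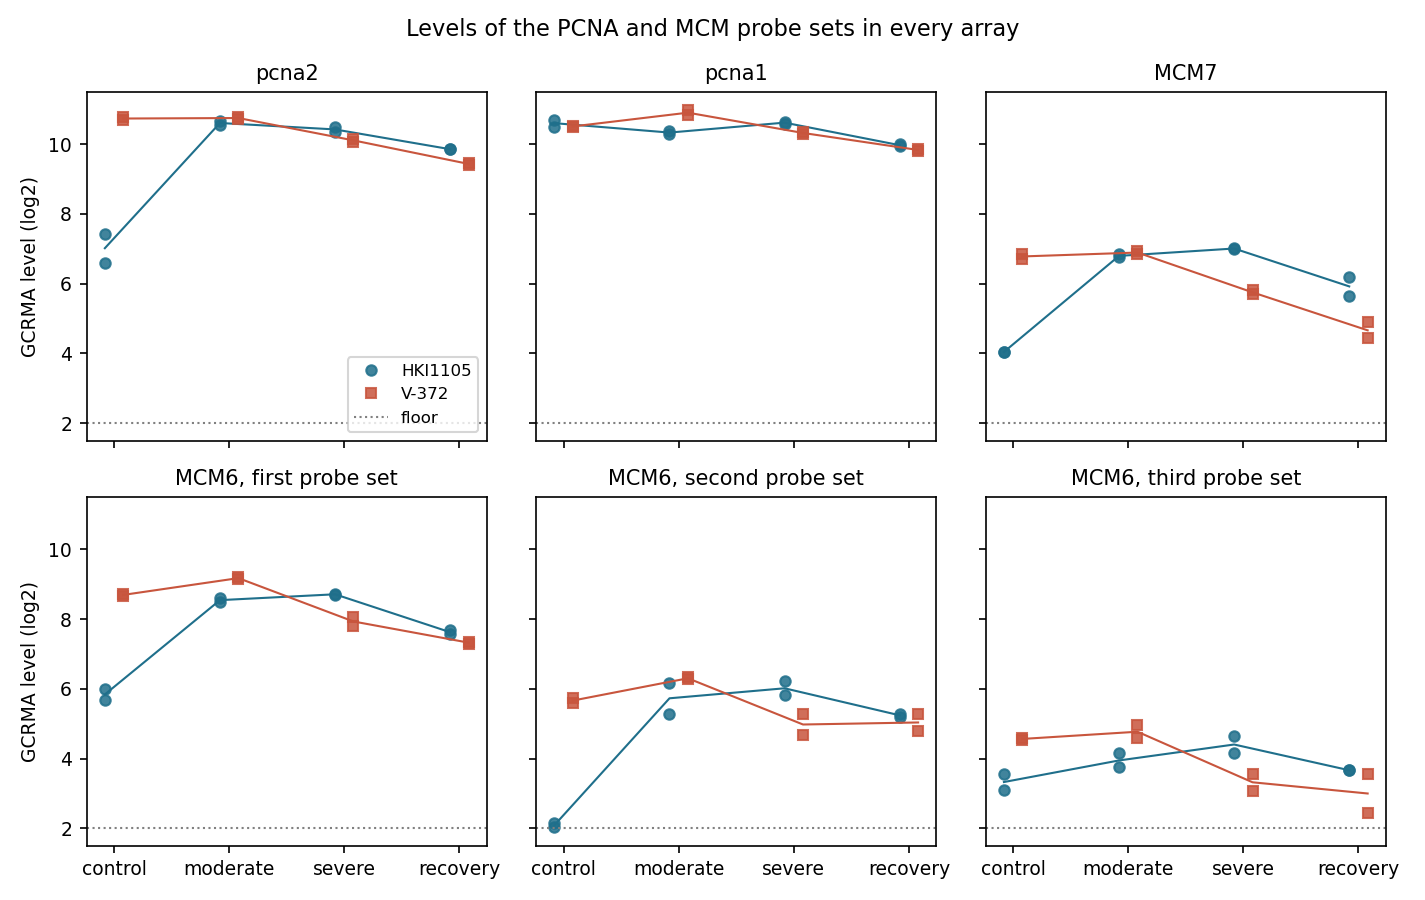
GCRMA level (log2, y axis) of each of the 6 probe sets in every array at the 4 stages (x axis), with HKI1105 as circles and V-372 as squares, lines through the group means and the floor of 2.01 as a dotted line. The HKI1105 control lies low for pcna2, MCM7 and the first and second MCM6 probe sets, with pcna2 at 6.61 and 7.43, while pcna1 has 10.71 and 10.50 in the same arrays.

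The first MCM6 probe set gave the most even values of this gene. It had 5.99 and 5.69 in the HKI1105 control, 8.60 and 8.49 at moderate stress, 8.72 and 8.70 at severe stress and 7.69 and 7.56 in the recovery, against 8.73 and 8.66, 9.21 and 9.14, 8.05 and 7.82, and 7.29 and 7.36 at the same stages of V-372. V-372 at moderate stress was highest and the HKI1105 control lowest, and of the 7 neighbouring pairs 1 overlapped, HKI1105 severe with the V-372 control. The second probe set lay at 2.15 and 2.03 in the HKI1105 control, close to the floor, and at 6.17 and 5.29, 5.81 and 6.22, and 5.20 and 5.28 at the later stages. In V-372 it had 5.59 and 5.73 in the control, 6.33 and 6.27 at moderate stress, 5.28 and 4.67 at severe stress and 5.28 and 4.79 in the recovery. Its order of groups had the same ends as that of the first probe set, but its arrays of one group differed more, and 4 of its 7 neighbouring pairs overlapped.

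The third MCM6 probe set put the groups in another order. It had 3.56 and 3.09 in the HKI1105 control, 4.15 and 3.74 at moderate stress, 4.15 and 4.65 at severe stress and 3.67 and 3.66 in the recovery. In V-372 it had 4.58 and 4.54, 4.95 and 4.59, 3.07 and 3.57, and 3.56 and 2.43 at these stages. Here the V-372 recovery, not the HKI1105 control, was the lowest group. It belongs to the same design group as the second probe set, and the suffix x in its identifier marks, in the naming of the maker of the array, a set with probes that can also match other transcripts. Its values are therefore uncertain as a measure of MCM6 alone.

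pcna1 did not share the low HKI1105 control. Its level was 10.71 and 10.50 in that control, 10.30 and 10.37 at moderate stress, 10.60 and 10.65 at severe stress and 9.94 and 10.01 in the recovery. In V-372 it was 10.49 and 10.53, 10.83 and 10.99, 10.35 and 10.30, and 9.81 and 9.87. The V-372 group at moderate stress was highest and both recovery groups were lowest, and 3 of the 7 neighbouring pairs overlapped, HKI1105 severe with the HKI1105 control, HKI1105 control with V-372 control, and HKI1105 moderate with V-372 severe. The group means spanned 1.07 log2 units. Of the 6 members, the 4 probe sets of pcna2, MCM7 and the first and second of MCM6 had both HKI1105 control arrays below all others, and 11.9% of all probe sets (2119) did. pcna1 and the third MCM6 probe set did not.

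The 2 PCNA genes encode the same kind of clamp, and their ratio can be followed within each array. Because 2 probe sets cannot be compared in level, the difference of pcna2 and pcna1 was set relative to its mean in the V-372 control. It was -4.33 and -3.30 in the HKI1105 control arrays, a mean of -3.81 ± 0.73 (SD, n = 2). At moderate stress in HKI1105 it was 0.05 ± 0.11 (SD, n = 2), and its lowest group mean outside the HKI1105 control was -0.63 ± 0.09 (SD, n = 2), in the V-372 recovery. The pair therefore kept a ratio within 0.68 log2 units over 7 groups and departed from it in 1.

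**Figure D2:**
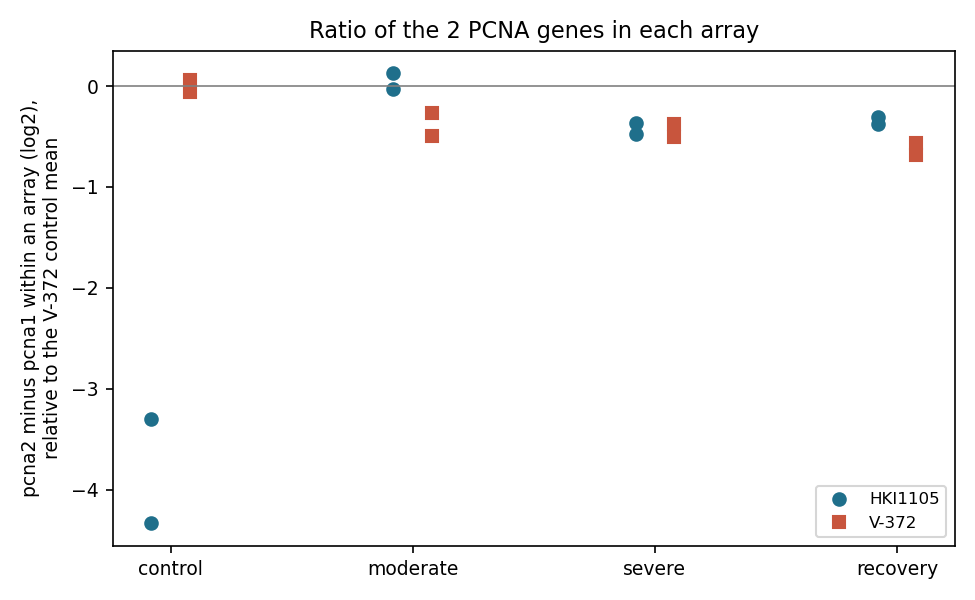
Difference between pcna2 and pcna1 within each array (log2, y axis), relative to the mean of the V-372 control, at the 4 stages (x axis), with HKI1105 as circles and V-372 as squares and each point an array. The HKI1105 control arrays lie at -4.33 and -3.30, and the V-372 recovery, the lowest of the other groups, has a mean of -0.63.

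In HKI1105, pcna2, MCM7 and the first and second MCM6 probe sets were higher at all stages after the start of waterlogging than in the control, and pcna1 was not. At moderate stress pcna2 was higher by 3.59 ± 0.21 log2 units (SE, n = 2 arrays per group), 12.1-fold (limma, adjusted p = 6.58e-07). MCM7 was higher by 2.76 ± 0.18, 6.76-fold (adjusted p = 1.49e-06), and the first MCM6 probe set by 2.71 ± 0.10, 6.52-fold (adjusted p = 4.59e-08). The second MCM6 probe set was higher by 3.64 ± 0.31, at least 12.5-fold since its control level lay close to the floor, and all its differences from that control are bounds of this kind. The third had a difference of 0.62 ± 0.37 that did not pass the test (adjusted p = 0.200). pcna1 was lower by a small amount, -0.27 ± 0.07 (adjusted p = 0.0113), but this call was lost without replicate 1 of the control (-0.16, adjusted p = 0.0773) and without replicate 1 of the moderate stress group (-0.24, adjusted p = 0.0672).

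Counted at an adjusted p under 0.05, 4 of the 6 members rose and 1 fell in HKI1105 under moderate stress, beside 26.5% of all 17734 probe sets that rose and 27.5% that fell. The median change of the 6 was 2.73, and that of all probe sets 0. At the threshold of the study's methods, p at most 0.001 and a change of at least 5-fold, 4 of the 6 were higher, beside 5.92% of all probe sets. At severe stress 5 rose and none fell (background 27.1% and 23.2%), with a median of 2.92, and 4 were higher at the study's threshold (background 4.02%). In the recovery 4 rose and 1 fell (background 26.8% and 21.2%), with a median of 1.83. These 3 comparisons share the control arrays. MCM6 enters the counts and medians with each of its 3 probe sets, so they are not counts of separate genes.

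At severe stress the changes in HKI1105 were 3.41 ± 0.21 for pcna2, 2.97 ± 0.18 for MCM7 and 2.87 ± 0.10 and at least 3.93 for the first and second MCM6 probe sets, all with adjusted p of 6.44e-06 or less. The third MCM6 probe set rose by 1.08 ± 0.37 (adjusted p = 0.0374), a call that was lost without replicate 2 of the control (0.84, adjusted p = 0.188) or without replicate 2 of the severe stress group (0.83, adjusted p = 0.202). pcna1 had a difference of 0.02, with a 95% confidence interval of -0.15 to 0.18. In the recovery pcna2 was still higher than in the control by 2.84 ± 0.21, MCM7 by 1.88 ± 0.18 and MCM6 by 1.79 ± 0.10 and at least 3.15, whereas pcna1 was lower by -0.63 ± 0.07 (adjusted p = 9.26e-05) and the third MCM6 probe set had 0.34 ± 0.37.

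Set against the V-372 control instead, these stages showed no increase. This contrast, added after the data were seen, left the HKI1105 control out, mixes the lines with the stages, and follows from the levels already given. No member was higher at any stage. At moderate stress pcna2 then had -0.13 (adjusted p = 0.147), MCM7 0.02 and the first MCM6 probe set -0.15, and the only call was the lower pcna1 (-0.18, adjusted p = 0.0323). At severe stress pcna2 was the only call (-0.31, adjusted p = 0.00398), and in the recovery pcna2, pcna1, MCM7 and the first MCM6 probe set were lower, by -0.88, -0.54, -0.86 and -1.07.

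**Figure D3:**
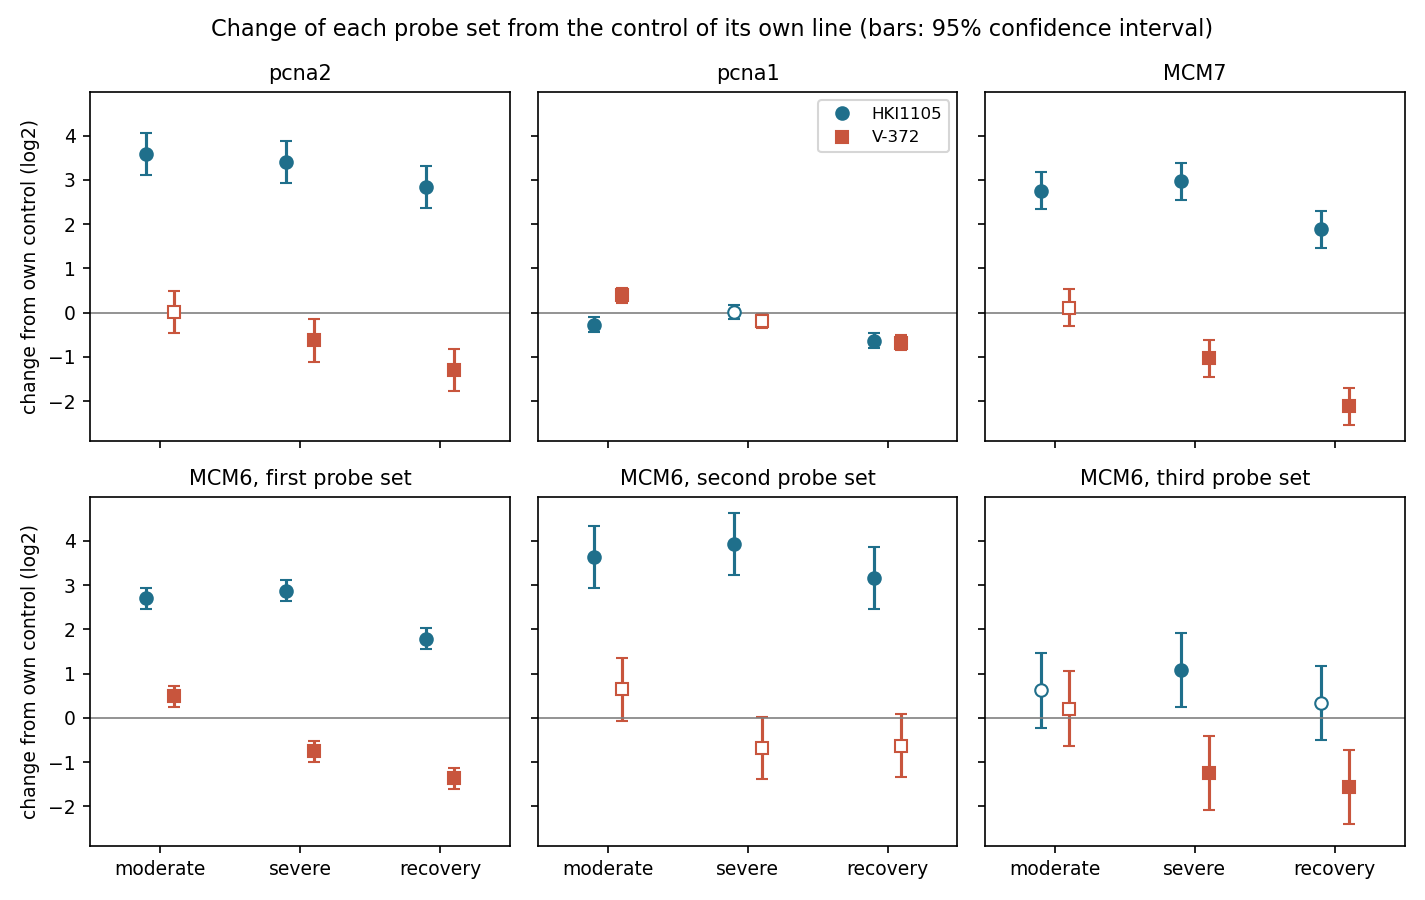
Change of each probe set from the control of its own line (log2, y axis) at the 3 later stages (x axis), with HKI1105 as circles, V-372 as squares, bars for the 95% confidence interval and filled symbols for adjusted p under 0.05. In HKI1105 pcna2 lies at 3.59, 3.41 and 2.84, and in V-372 at 0.01, -0.63 and -1.30.

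In V-372, MCM7 and the first MCM6 probe set fell at severe stress and in the recovery, and no member fell at moderate stress. At moderate stress 2 of 6 rose and none fell (background 14.0% and 19.1%), with a median of 0.30. The 2 were pcna1, by 0.40 ± 0.07 (adjusted p = 0.00273), and the first MCM6 probe set, by 0.48 ± 0.10 (adjusted p = 0.00658). The difference of pcna2 was 0.01 with a 95% confidence interval of -0.46 to 0.49, and that of MCM7 0.11 with -0.30 to 0.53.

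At severe stress in V-372 none of the 6 rose and 4 fell (background 17.5% and 31.7%), with a median of -0.72. MCM7 fell by 1.03 ± 0.18 (adjusted p = 0.00113), the first MCM6 probe set by 0.76 ± 0.10 (adjusted p = 0.000225), the third by 1.24 ± 0.37 (adjusted p = 0.020) and pcna2 by 0.63 ± 0.21 (adjusted p = 0.0337). The calls of MCM7 and the first MCM6 probe set held without any 1 array. That of pcna2 was lost without any 1 of the 4 arrays compared, with values of -0.67 to -0.58 and adjusted p of 0.0838 to 0.132. The call of the third MCM6 probe set was lost without replicate 1 or 2 of the control (-1.22 and -1.26) or replicate 1 of the severe stress group (-0.996), with adjusted p up to 0.125. The second MCM6 probe set had -0.69 ± 0.31 (adjusted p = 0.103) and pcna1 -0.19 ± 0.07 (adjusted p = 0.0628).

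In the V-372 recovery none of the 6 rose and 5 fell (background 23.1% and 23.4%), with a median of -1.34. MCM7 fell by 2.12 ± 0.18 (adjusted p = 1.23e-05), 4.35-fold, to a level 0.62 above that of the HKI1105 control. pcna2 fell by 1.30 ± 0.21, pcna1 by 0.68 ± 0.07, and the first and the third MCM6 probe sets by 1.37 ± 0.10 and 1.57 ± 0.37. The call of the third held without any 1 array, but its value was -0.998 without replicate 2 of the recovery and -2.13 without replicate 1. The second MCM6 probe set had -0.63 ± 0.31 (adjusted p = 0.140). In this comparison 21 of the 33 root probe sets were lower and 2 higher, with a median of -2.24, and their summed level was 14.5 against 15.9 in the control. The 3′ probe set of the cyclophilin control exceeded its 5′ probe set by 2.88 in the V-372 recovery and by 3.27 to 4.81 in the other groups. The largest excess, 4.81, was that of HKI1105 at moderate stress, against 3.91 in the HKI1105 control. The part of these differences in the changes of the members was not tested.

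Genes of photosynthesis moved in the same roots. The summed level of 21 leaf and photosynthesis probe sets was 11.8 in the V-372 control, 14.6 at moderate stress, 17.3 at severe stress and 14.0 in the recovery, and in HKI1105 it was 12.3, 15.57, 15.1 and 11.8. At severe stress in V-372, where 4 members fell, 16 of the 21 were higher and 1 lower (background 17.5% and 31.7%). Among them pep1, the C4 carboxylase of mesophyll cells, was at 11.2 against 2.73 in the control. In HKI1105 18 of the 21 were higher and 1 lower at moderate stress (background 26.5% and 27.5%). At severe stress 16 were higher and 2 lower (background 27.1% and 23.2%), and in the recovery 3 and 10 (background 26.8% and 21.2%). Against most of this list under stress, pep1 went in HKI1105 from 8.04 in the control to the floor at each later stage. The 33 root probe sets had a sum of 15.9 in the V-372 control and 15.1 at severe stress. The part of this in the changes of the members was not tested.

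The lines were then compared in their response, the change from the control in HKI1105 less the same change in V-372, as an interaction term of the model. It differed for 5 members at moderate stress and 5 at each later stage. At moderate stress 4 members had the higher response in HKI1105 and 1, pcna1, the lower (background 25.1% and 23.6%). The differences were 3.58 ± 0.30 for pcna2 (adjusted p = 1.05e-05), 2.64 ± 0.26 for MCM7, 2.22 ± 0.15 and at least 3.0 for the first and second MCM6 probe sets, and -0.66 ± 0.10 for pcna1 (adjusted p = 0.000578). At severe stress 5 were higher and none lower (background 32.4% and 22.6%), with 4.04 ± 0.30 for pcna2, 4.00 ± 0.26 for MCM7 and 3.64 ± 0.15, at least 4.61 and 2.32 ± 0.52 for the MCM6 probe sets. In the recovery 5 were again higher and none lower (background 24.8% and 23.1%). The difference was then 4.14 ± 0.30 for pcna2 and 4.00 ± 0.26 for MCM7, and the response of pcna1 differed by 0.04 with a 95% confidence interval of -0.19 to 0.28. All 15 calls held without any 1 of the 8 arrays in each comparison, and each includes the difference between the 2 controls.

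Between the lines within a stage, 5 of the 6 members differed most in the control roots. In the control 5 of 6 members were lower in HKI1105 and none higher (background 29.9% and 24.3%). pcna2 was lower by -3.72 ± 0.21 (adjusted p = 6.05e-07), MCM7 by -2.74 ± 0.18, and the first and the third MCM6 probe sets by -2.86 ± 0.10 and -1.24 ± 0.37. The fitted difference of the second, -3.58, is a bound because of the floor. The call of the third was lost without replicate 2 of HKI1105 (-0.998, adjusted p = 0.110) and without either V-372 array (-1.22 and -1.26). pcna1 differed by 0.09 ± 0.07 (adjusted p = 0.340), and it was higher in HKI1105 by 0.28 (adjusted p = 0.0124) when each array was centred on its own median.

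At moderate stress 2 members were lower in HKI1105 and none higher (background 22.6% and 16.8%). These were pcna1, by -0.57 ± 0.07 (adjusted p = 0.000244, or 0.0531 with only the arrays compared), and the first MCM6 probe set, by -0.63 ± 0.10 (adjusted p = 0.00115). At severe stress 5 were higher in HKI1105 and none lower (background 27.2% and 21.5%). MCM7 was higher by 1.26 ± 0.18, 2.39-fold (adjusted p = 0.000332), and the first MCM6 probe set by 0.78 ± 0.10 (adjusted p = 0.000204), and both calls held without any 1 array. The calls of pcna1 (0.30 ± 0.07), the second (1.04 ± 0.31) and the third MCM6 probe set (1.08 ± 0.37) were each lost without replicate 2 of HKI1105, at 0.27, 0.84 and 0.84. That of the second was also lost without replicate 2 of V-372 (0.74), and that of the third without replicate 1 of V-372 (0.84). pcna2 had 0.31 with a 95% confidence interval of -0.16 to 0.79.

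In the recovery 2 were higher in HKI1105 and none lower (background 18.2% and 21.4%). MCM7 was higher by 1.26 ± 0.18 (adjusted p = 0.000514). The first MCM6 probe set was higher by 0.30 ± 0.10 (adjusted p = 0.0491), a call that was lost without any 1 of the 4 arrays compared (0.24 to 0.36). Without single arrays this difference of MCM7 was 0.989 to 1.53 and passed each time, but it did not pass when only the 4 arrays compared were fitted (adjusted p = 0.112). pcna2 had 0.42 ± 0.21 (adjusted p = 0.160).

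**Figure D4:**
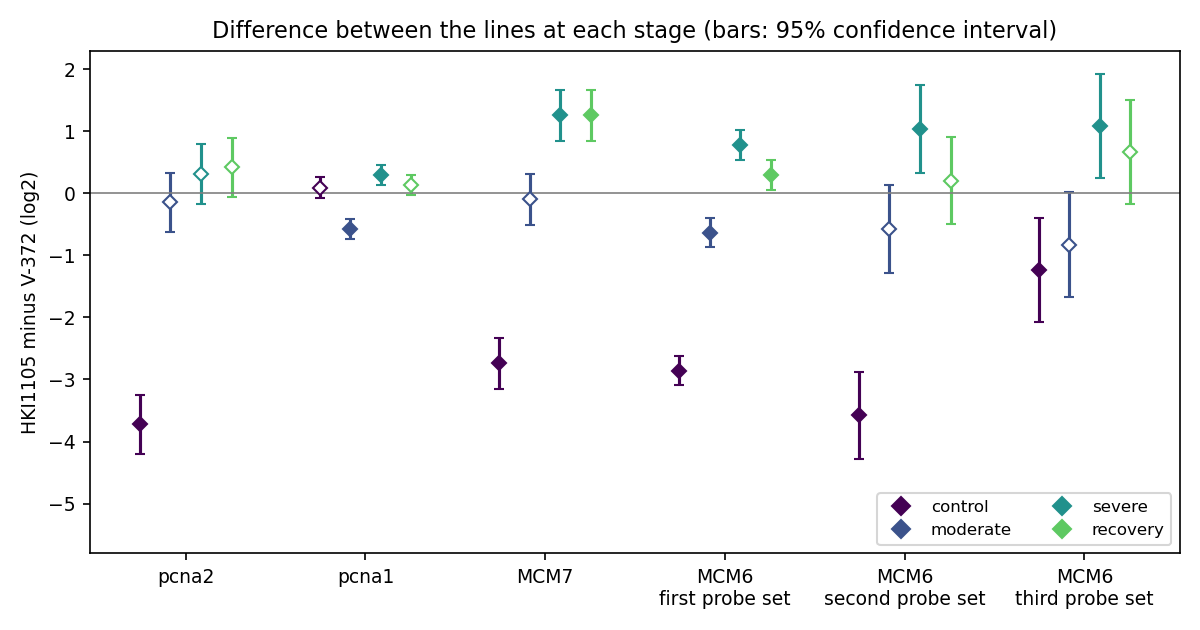
Difference HKI1105 minus V-372 within each stage (log2, y axis) for the 6 probe sets (x axis), coloured by stage, with bars for the 95% confidence interval and filled symbols for adjusted p under 0.05. The control differences of pcna2, MCM7 and the first and second MCM6 probe sets lie at -3.72, -2.74, -2.86 and -3.58, and MCM7 lies at 1.26 at severe stress and in the recovery.

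The later stages of each line were also compared with each other, without either control. From moderate to severe stress in HKI1105, 1 member rose and none fell (background 17.4% and 13.8%). It was pcna1 (0.29 ± 0.07, adjusted p = 0.0158), and the call was lost without replicate 1 of the moderate stress group (0.25) or replicate 2 of the severe stress group (0.26). In V-372 the same step brought a fall of all 6 members and no rise (background 28.1% and 17.7%), with a median of -1.19. MCM7 fell by 1.14 ± 0.18 (adjusted p = 0.000662), pcna1 by 0.58 ± 0.07 (adjusted p = 0.000141) and the first MCM6 probe set by 1.24 ± 0.10 (adjusted p = 9.65e-06), and these 3 calls held without any 1 array. The fall of pcna2 (-0.64 ± 0.21) was lost without any 1 of the 4 arrays (-0.69 to -0.60). That of the second MCM6 probe set (-1.33) was lost without replicate 2 of the severe stress group (-1.02), and that of the third (-1.45) without replicate 1 of the moderate (-1.27) or of the severe stress group (-1.20).

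From severe stress to recovery, 3 members fell in HKI1105 and none rose (background 14.7% and 16.2%). pcna1 fell by 0.65 ± 0.07, MCM7 by 1.09 ± 0.18 and the first MCM6 probe set by 1.09 ± 0.10, with adjusted p of 0.00182 or less. pcna2 had -0.57 ± 0.21 (adjusted p = 0.0742), which passed under 4 alternatives, quantile normalization (-0.62, adjusted p = 0.0245), centring on array medians (adjusted p = 0.0471), the filter on low values (adjusted p = 0.0353) and only the arrays compared (adjusted p = 0.0461). With only the arrays compared, the call of MCM7 was lost (adjusted p = 0.102). In V-372 4 members fell and none rose (background 20.6% and 28.8%). MCM7 fell by 1.09 ± 0.18 there as well, pcna1 by 0.49 ± 0.07 and the first MCM6 probe set by 0.61 ± 0.10, whereas the fall of pcna2 (-0.68 ± 0.21) was lost without any 1 array (-0.72 to -0.63). With only the arrays compared, the calls of MCM7 (adjusted p = 0.0592) and the first MCM6 probe set (adjusted p = 0.0509) were lost as well.

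The profiles of the members over the 8 group means were compared as a description, since all of them come from the same arrays. The first MCM6 probe set had a Pearson correlation of 0.96 with pcna2, 0.95 with MCM7 and 0.95 with the second MCM6 probe set. pcna1 correlated with the other members at 0.06 to 0.72 over the 8 means and at 0.84 to 0.96 over the 7 means that leave out the HKI1105 control. In these correlations the departure of pcna1 from the other members thus lay mainly in that group. Over the 8 means the third MCM6 probe set also had only 0.62 with the second and 0.63 with pcna2. Over the 7 means it had 0.92 and 0.89.

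Among 989 named probe sets at least 1 log2 unit above the floor in a group, the one most like pcna2 over the 8 means was ROA (r = 0.995), the maize gene of replication origin activator, which is a homologue of MCM3 and whose name the rule for members did not match. ROA had 6.01 and 4.89 in the HKI1105 control and 9.25 and 9.18 at moderate stress, against 9.52 and 9.43 in the V-372 control. In HKI1105 it was higher by 3.77 ± 0.28 at moderate stress (adjusted p = 3.24e-06), and in V-372 it had 0.14 ± 0.28 at moderate stress and was lower by -1.74 ± 0.28 in the recovery (adjusted p = 0.000714). It was also the set most like the first MCM6 probe set (r = 0.981). The next most like pcna2 were por2, another name of the aquaporin TIP2-3 (r = 0.985), cycD2, a D-type cyclin (r = 0.981), gst41, a glutathione transferase (r = 0.981), and nfd106 (r = 0.978). These correlations and those of the next paragraph include the HKI1105 control and were not computed without it. In 11.9% of all probe sets both arrays of this control lay below all others.

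The first MCM6 probe set was followed by dmt101, a DNA methyltransferase of the type that copies methylation onto new strands (r = 0.974), pdi4, a protein disulfide isomerase (r = 0.970), expa1, an expansin that loosens cell walls (r = 0.966), and IIG1 (r = 0.962). The probe sets of expa1 and IIG1, also named piip1, are among those listed above for root genes. They had 2.20 and 2.35 in the HKI1105 control and 10.6 and 13.8 at moderate stress in HKI1105. MCM7 was most like 2 probe sets of OBF1, a bZIP transcription factor (r = 0.981 and 0.977), pdi4 (r = 0.980) and 2 of met5, a DNA methyltransferase (r = 0.976 and 0.961). For the second MCM6 probe set they were pdi, rps6-2, RP-P0, por2 and ROA (r = 0.965 to 0.977), and for the third paa, pdi12, pdi4, orc4 and PER1 (r = 0.866 to 0.910). For pcna1 they were ald1, LON2, lip15, UMPS and RPL27A (r = 0.800 to 0.907). dmt101 had 6.81 in the HKI1105 control against 8.97 in the V-372 control, and met5 2.79 and 3.48 against 4.98 and 5.38 in its 2 probe sets. The first of these met5 probe sets bears the suffix x, with the same limit as the third MCM6 probe set.

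Other genes of replication and division were counted by lists. The origin recognition complex marks the sites where MCM rings are loaded, and 4 of its genes were measured by 4 probe sets. In HKI1105 2 rose and none fell at each of the 3 stages, with medians of 0.48, 0.67 and 0.43, where 26.5%, 27.1% and 26.8% of all probe sets rose. orc2 rose by 2.22 ± 0.24 at moderate stress (adjusted p = 3.83e-05) and orc3 by 0.73 ± 0.20 (adjusted p = 0.0110), while orc1 had 0.14 and orc4 0.23. In V-372 none rose, and 1, 2 and 3 fell at moderate stress, severe stress and recovery, where 19.1%, 31.7% and 23.4% of all probe sets fell. orc2 was lower by -0.98 at severe stress and by -2.73 in the recovery (adjusted p = 1.31e-05). The level of orc2 was 4.01 in the HKI1105 control and 4.02 in the V-372 recovery, against 6.75 in the V-372 control.

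Histones package new DNA, and their 10 probe sets belong to 4 genes. In every group 2 of the 10 lay at the floor, and 2 others lay there or just above it. In HKI1105 6, 5 and 5 rose and 0, 0 and 1 fell at the 3 stages, beside 26.5%, 27.1% and 26.8% of all probe sets that rose and 27.5%, 23.2% and 21.2% that fell. his2b5, a histone H2B, rose by 4.96 ± 0.31 at moderate stress (adjusted p = 1.15e-06) from 5.73, but lay between 2.63 and 2.70 in all V-372 groups. Those V-372 levels lay within 1 log2 unit of the floor, which limits what can be measured of his2b5 in that line. Of the 6 probe sets of his1, a linker histone, the 2 that rose most rose by 1.71 ± 0.23 and 1.62 ± 0.21. Both bear the suffix x, as the third MCM6 probe set does, so they are uncertain as measures of his1 alone. In V-372 1, 4 and 1 rose (background 14.0%, 17.5% and 23.1%) and 1 fell at each stage (background 19.1%, 31.7% and 23.4%), and Hist1h3b, an H3 histone, fell by 1.81 ± 0.16 in the recovery.

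Of 11 probe sets of 9 cell cycle genes, 7 rose and 2 fell in HKI1105 under moderate stress, 5 and 2 later under severe stress and 5 and 2 in the recovery. Over all probe sets 26.5%, 27.1% and 26.8% rose and 27.5%, 23.2% and 21.2% fell, so that the falls of this list were no more frequent than the background. The mitotic cyclin genes cyc3, cyc1 and cyc2 rose by 4.99 ± 0.30, 2.68 ± 0.09 and 1.54 ± 0.29 at moderate stress. In the HKI1105 control cyc3 and cyc2 lay within 1 log2 unit of the floor, at 2.61 and 2.45, so their rises may be understated. The 2 that fell were both probe sets of RBR1, a retinoblastoma-related gene whose protein holds back entry into S phase, by 0.88 ± 0.10 and 0.62 ± 0.10. In V-372 1, 1 and 2 rose (background 14.0%, 17.5% and 23.1%) and 3, 5 and 5 fell (background 19.1%, 31.7% and 23.4%). cyc3 fell there by 1.17 ± 0.30 at moderate stress and by 3.19 ± 0.30 in the recovery, and cyc1 by 2.33 ± 0.09 in the recovery. The level of cyc3 was 2.61 in the HKI1105 control and 7.85 in the V-372 control.

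**Figure D5:**
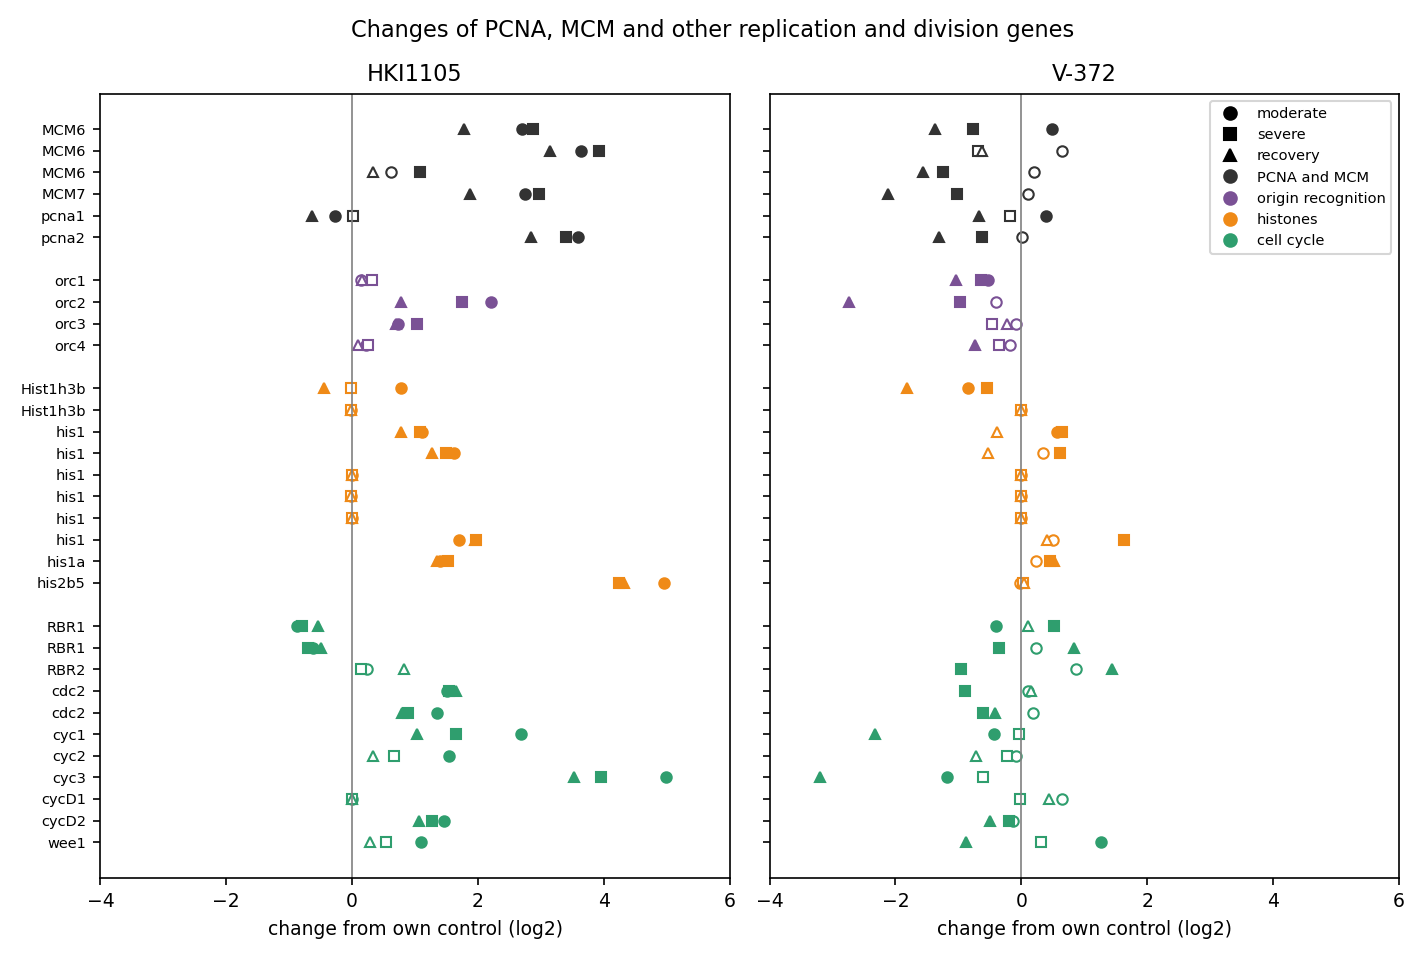
Change from the control of the same line (log2, x axis) for the 6 PCNA and MCM probe sets and 25 probe sets of origin recognition, histone and cell cycle genes (y axis), at moderate stress (circles), severe stress (squares) and recovery (triangles), filled where adjusted p was under 0.05. In HKI1105 his2b5 and cyc3 lie at 4.96 and 4.99 at moderate stress, and RBR1 lies below 0.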

How the data were processed

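Root RNA of 16 samples was labelled with a 3′ kit and measured on the GeneChip Maize Genome Array of Affymetrix. The deposited values are on the log2 scale, made by the authors with GCRMA (background correction, normalization and summary of probe sets; version not given in the sources used here). They were used without further scaling. The array holds 17734 probe sets, 113 of them controls, and 25.6% of the values lay within 0.02 of the floor. The platform annotation lists 1453 probe sets, of which 1377 matched RefSeq genes (assembly Zm-B73-REFERENCE-NAM-5.0, used for names only). The number of arrays limits the precision.

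One mean per group was fitted to all arrays with limma (3.58.1, R 4.3.3; 8 residual degrees of freedom, prior 0.462), and p-values were adjusted by Benjamini-Hochberg over all probe sets of a comparison. Rose and fell mean an adjusted p under 0.05. The code was tested on simulated data. Members and lists were chosen with earlier results of these data known. Of each other list the genes named were up to 3 probe sets rising and 3 falling most at moderate stress in HKI1105, and others named were chosen after their values were seen. The 5 named probe sets most correlated with each member were also named, and 13 genes were left out of lists because their annotation showed another function. Alternatives were quantile normalization, centring on array medians, a filter on low values, a mean-variance trend, only the arrays compared, a replicate block and leaving out each array. Errors after ± are standard errors unless SD is written.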

Additional observations from a re-analysis of the deposited data

Results flagged for a closer look

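The responses of the lines differed, by the interaction in limma, for 15 combinations of probe set and stage, each with 2 arrays per group. Of all 17734 probe sets, 8632 had such a difference under moderate stress, 9747 under severe stress and 8499 in the recovery samples. Every value below includes the difference between the 2 controls, HKI1105 minus V-372. It was -3.72 for pcna2, -2.74 for MCM7 and 0.09 for pcna1. At the 3 later stages the lines differed by -0.14, 0.31 and 0.42 for pcna2. For MCM7 these differences were -0.10, 1.26 and 1.26. At moderate stress the change in HKI1105 less the change in V-372 was 3.58 for pcna2, 2.64 for MCM7, 2.22 and 3.0 for the first and second MCM6 probe sets, and -0.66 for pcna1, the only one below 0. At severe stress it was 4.04 for pcna2, 4.00 for MCM7 and 3.64, 4.61 and 2.32 for the 3 MCM6 probe sets in their order. In the recovery it was 4.14 for pcna2, 4.00 for MCM7 and 3.16, 3.78 and 1.90 for the 3 MCM6 probe sets. The values of the second MCM6 probe set are bounds, since its HKI1105 control lay close to the floor.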

How the results depend on the processing

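Of 102 member results, none changed its side of the threshold under a mean-variance trend or with a replicate block. The replicate numbers did not pair the samples (correlation of deviations -0.184 to 0.233 over 28 pairs of groups, over 0.1 in 3), and under the replicate block 9489 probe sets in place of 9584 passed at moderate stress in HKI1105, where pcna2 kept 3.59. The second MCM6 probe set passed at severe stress in V-372 under quantile normalization (-0.92, adjusted p = 0.0418) and with the filter on low values (-0.69, adjusted p = 0.0497). With only the arrays compared, pcna1 no longer passed at moderate stress in HKI1105 (-0.27, adjusted p = 0.181) or V-372 (0.40, adjusted p = 0.0816), nor did the third MCM6 probe set at severe stress in HKI1105 (1.08, adjusted p = 0.119), in the V-372 recovery (-1.57, adjusted p = 0.147) or in the difference of responses at recovery (1.90, adjusted p = 0.0583), while the second MCM6 probe set (0.64, adjusted p = 0.0344) passed at moderate stress and pcna1 (-0.19, adjusted p = 0.0372) at severe stress in V-372; fewer arrays enter these fits. In all, 16 of the results that passed lost the call under this setting, among them MCM7 between the lines in the recovery (1.26, adjusted p = 0.112) and from severe stress to recovery in HKI1105 (-1.09, adjusted p = 0.102) and V-372 (-1.09, adjusted p = 0.0592), and pcna1 between the lines at moderate stress (-0.57, adjusted p = 0.0531). Without single arrays, pcna1 ranged from -0.37 to -0.16 at moderate stress in HKI1105 and from 0.10 to 0.31 in the difference of responses at severe stress, the third MCM6 probe set from 0.83 to 1.33 at severe stress in HKI1105 and from -1.49 to -0.996 in V-372, and pcna2 from -0.67 to -0.58 at severe stress in V-372. The third MCM6 probe set ranged from -2.13 to -0.998 in the V-372 recovery. In all, 14 of the 69 results that passed lost the call without some array, and 0 changed sign; an arm left with 1 array was assumed to vary like the other groups.

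With the V-372 control in place of the HKI1105 control, a fit added after the data were seen, the changes in HKI1105 at moderate stress were -0.13 for pcna2, 0.0161 for MCM7, and -0.15 and 0.0652 for the first and second MCM6 probe sets. At severe stress they were -0.31, 0.23, 0.0177 and 0.35, and -0.16 for the third MCM6 probe set. In the recovery they were -0.88 for pcna2, -0.86 for MCM7, and -1.07 and -0.42 for the first and second MCM6 probe sets. This comparison is between lines as well as stages, and the cause was not tested. Levels near the floor, as those of the second MCM6 probe set in the HKI1105 control, limit what can be measured.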
